A study of Mus musculus with 4 samples.

Results

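The genes described here are 35 genes of mitosis and the G2/M transition, measured in gastric tumours labelled as wild-type (WT) or as lacking the kinase MST4 (KO). They were taken from a gene list by symbol, and all 35 were found among the 23258 genes of the deposited table and passed the filter on low counts. The rule uses no measured value, but the list was chosen with earlier results of these data known. The series holds 4 RNA sequencing libraries, 2 per genotype, described as coming from C57BL/6 mice of both sexes at postnatal week 20. The KO animals are described as carrying floxed Mst4 (Mst4F/F) and a Cre transgene. The labels do not say that the deletion is restricted to the tumour cells. How the tumours arose, whether the WT animals carried Cre, and whether each library comes from its own animal, is not stated in the sources at hand. The p-values therefore cover only library-to-library spread, which could be technical.

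Entry into mitosis is driven by CDK1 bound to cyclin A and then cyclin B, and the transcription factor FOXM1 raises expression of many of the genes used in this window. Aurora and Polo-like kinases build the spindle, the checkpoint kinases hold the cell until every kinetochore is attached, and the anaphase-promoting complex (APC/C) then marks cyclin B and securin for destruction. Because these transcripts peak late in each cycle, they are widely read as a measure of how many cells of a tumour are dividing. In bulk tissue, fewer dividing cells and less of each transcript per cell cannot be told apart.

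The table carries human gene identifiers although the labels give mouse: all 23258 row identifiers begin with the taxon number of human. Human symbols are therefore used, and WT and KO mean only how a library was labelled. Whether the sequenced material was mouse or human is not resolved by the sources at hand. Library totals were 30505281 estimated counts in WT replicate 1 and 18613533 to 18804535 in the other libraries. STK26, the human name of MST4 (gene number 51765), was at 54.2 and 54.9 CPM (counts scaled by library size) in WT replicates 1 and 2, against 9.07 and 7.36 CPM in KO replicates 1 and 2, so the libraries followed their labels. The log2 fold change of STK26 was -2.73 (SE 0.26), although its edgeR adjusted p was 0.834. With DESeq2 it was -2.73 (SE 0.34, DESeq2 adjusted p = 8.5e-12). In FPKM, which also scale for gene length, STK26 was at 17.23 and 17.24 in WT against 5.22 and 5.75 in KO. The log2 fold change was smaller on that scale, -1.49 on log2(FPKM + 1). Of 13 gastric epithelial markers 11 were found, and 9 of these did not reach 1 CPM in any library, with TFF2 at 0 throughout. PSCA was at 235 and 119 CPM in WT against 68.3 and 81.5 CPM in KO, and ATP4A lay between 4.96 and 11.4 CPM. The summed gastric markers, mostly PSCA, were at 241 and 128 CPM in WT against 80.1 and 89.4 CPM in KO. Of the 5 epithelial markers CDH1 and KRT19 also stayed under 1 CPM, EPCAM lay between 7.65 and 15.04 CPM, KRT8 ranged from 481 to 1761 CPM, and KRT18 from 567 to 989 CPM. The summed fibroblast markers were at 193 and 141 CPM in WT against 116 and 136 CPM in KO, the leukocyte markers at 41.6 and 23.3 CPM against 17.03 and 20.5 CPM, the endothelial markers at 8.12 and 6.16 CPM against 2.88 and 4.81 CPM, and the epithelial markers at 1057 and 2765 CPM against 1953 and 2237 CPM. COL1A1 gave most of the fibroblast sum, at 144 and 107 CPM in WT against 83.2 and 105 CPM in KO. CD68 gave most of the leukocyte sum, at 34.1 and 19.6 CPM in WT against 13.0 and 17.7 CPM in KO. The fibroblast markers COL1A2 and PDGFRA and the endothelial markers KDR and EMCN stayed under 1 CPM in every library. So did 4 of the 7 leukocyte markers found, PTPRC, CD3D, LYZ and ITGAM. The part of the markers in the results below was not tested. WT replicate 1 stood apart: it differed over 1.5-fold from WT replicate 2 in 48.2% of the genes tested, whereas the KO libraries differed that much from each other in 9.06%.

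All 35 genes were well expressed in every library. Scaled for gene length, their mean levels over the 4 libraries ran from 9.44 to 209 FPKM (fragments scaled by library size and gene length) with a median of 45.05 FPKM, against a median of 6.62 FPKM over the 16030 genes tested. The securin gene PTTG1 was highest, at 232 and 189.6 FPKM in WT and 216 and 197 FPKM in KO. UBE2C, the ubiquitin-conjugating enzyme of the APC/C, followed at 219 and 140.2 FPKM in WT and 153 and 169 FPKM in KO, and the ranges of these leading genes overlapped. Next were TPX2, the activator of Aurora A, with a mean of 149.95 FPKM, and CCNB1 with 129 FPKM. The kinetochore motor CENPE was lowest, at 5.81 and 9.7 FPKM in WT and 12.19 and 10.06 FPKM in KO, and did not overlap with TTK, the next gene up, which lay between 15.43 and 19.63 FPKM. Counts ranged from 558 for CENPA in WT replicate 2 to 24260 for TOP2A in WT replicate 1.

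The comparison of KO with WT asks whether mitotic transcripts differ when MST4 is lost. No member passed the test, and most lay slightly higher in KO. Of the 35 genes, 24 were higher and 11 lower in KO, with a median log2 fold change of 0.16, whereas 48.6% of all genes tested were higher and their median was -0.01. The edgeR quasi-likelihood test called 0 of the 35 at adjusted p under 0.05, and 0 were under 0.05 before adjustment. DESeq2, limma-voom and limma on FPKM also called 0 of them. Over all 16030 genes edgeR called 0 (0%), with 668 (4.17%) under 0.05 before adjustment. The lowest edgeR adjusted p of all genes was 0.834, and STK26 shared it. The 0 calls therefore do not show that the members were unchanged. DESeq2 called 40 of the 16030 genes (0.25%), with 945 (5.90%) under 0.05 before adjustment. The 95% intervals of all 35 log2 fold changes included 0, and those of 24 genes lay between -1 and 1, so a 2-fold difference in either direction lay outside them. For the remaining 11 genes the interval reached a 2-fold difference in at least 1 direction.

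**Figure D1:**
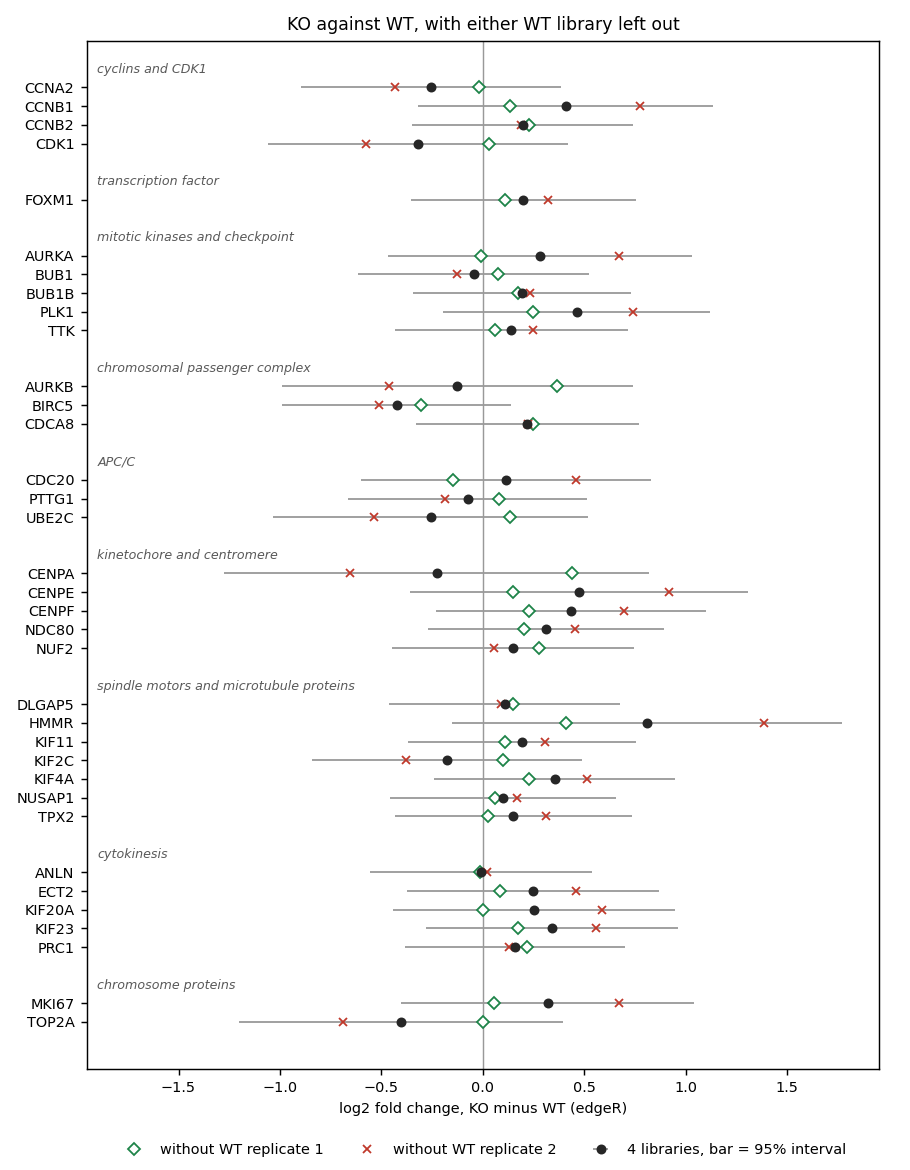
Log2 fold change of each of the 35 genes, KO minus WT, grouped by role. Filled points are the estimates from all 4 libraries with their 95% intervals, open diamonds the estimates without WT replicate 1 and crosses those without WT replicate 2. All intervals include 0, and the diamonds lie between -0.30 and 0.44.

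The summed level of the 35 genes was 6413 CPM in WT replicate 1, 6589.9 CPM in WT replicate 2, 7295 CPM in KO replicate 1 and 6782 CPM in KO replicate 2. The KO sums both lay above the WT sums, but KO replicate 2 exceeded WT replicate 2 by 192 CPM, whereas the KO libraries lay 514 CPM apart. On the FPKM scale the sums were 2189 and 2141 FPKM in WT against 2439 and 2311 FPKM in KO, again without overlap. Gene by gene, the KO values were both above the WT values for 15 of the 35 (42.9%), against 18.3% of all genes tested, and below both for BIRC5 alone (2.86%), against 19.1%. The count of 15 depended on scaling: it was 13 with RLE factors, 19 with upper-quartile factors, 21 on the FPKM scale and 22 on unscaled library totals. The share of all genes with both KO values above moved with it, to 18.25%, 21.4%, 22.2% and 25.03% in the same order.

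The cyclins and their kinase did not share a direction. Cyclin B1 (CCNB1, gene number 891), which activates CDK1 for mitotic entry, was at 166 and 255 CPM in WT against 288 and 271 CPM in KO. WT replicate 1 was low and the other 3 libraries were close together, although both KO values were above both WT values. The estimate for CCNB1 was a log2 fold change of 0.41 (SE 0.28, edgeR adjusted p = 0.834, 95% interval -0.32 to 1.14). CDK1 itself (gene number 983) showed the opposite arrangement, at 303 and 196 CPM in WT against 209 and 191 CPM in KO. WT replicate 1 was the high library there and WT replicate 2 lay between the KO libraries. The log2 fold change of CDK1 was -0.32 (SE 0.29, edgeR adjusted p = 0.834, 95% interval -1.06 to 0.42). Cyclin A2 (CCNA2), which acts from S phase into G2, resembled CDK1, with 107 and 78.8 CPM in WT against 75.8 and 79.8 CPM in KO. Cyclin B2 (CCNB2) was at 155 and 148 CPM in WT against 181 and 166 CPM in KO, without overlap, for a log2 fold change of 0.20 (SE 0.21).

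FOXM1 (gene number 2305) was at 311 and 355 CPM in WT against 386 and 378 CPM in KO. The genotypes did not overlap, but WT replicate 2 was nearer to the KO libraries than to WT replicate 1. The log2 fold change was 0.20 (SE 0.22, edgeR adjusted p = 0.839, 95% interval -0.36 to 0.75).

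Among the mitotic kinases and checkpoint genes 4 of 5 were higher in KO. PLK1 (gene number 5347), the Polo-like kinase of mitotic entry and centrosome maturation, was at 137 and 189 CPM in WT against 213 and 235 CPM in KO. The genotypes did not overlap. PLK1 had a log2 fold change of 0.46 (SE 0.26, edgeR adjusted p = 0.834, 95% interval -0.20 to 1.12), or 0.25 (SE 0.14) without WT replicate 1. Aurora A (AURKA, gene number 6790), which acts at the spindle poles, was at 164 and 257 CPM in WT against 264 and 247 CPM in KO. Here WT replicate 2 lay inside the KO range, and the log2 fold change of 0.28 (SE 0.29, edgeR adjusted p = 0.837, 95% interval -0.47 to 1.03) went with the low value of WT replicate 1. The checkpoint kinase BUB1 was at 177 and 151 CPM in WT against 166 and 152 CPM in KO, and its partner BUB1B, which restrains the APC/C, at 121 and 124 CPM in WT against 143 and 137 CPM in KO. TTK, the kinase that starts the checkpoint signal, was at 52.0 and 58.2 CPM in WT against 63.9 and 57.6 CPM in KO. Of these 3 only BUB1B was free of overlap.

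The chromosomal passenger complex, which corrects faulty attachments and moves to the midzone for cytokinesis, held the member with the lowest estimate. Survivin (BIRC5, gene number 332) was at 152 and 129 CPM in WT against 105 and 104 CPM in KO. BIRC5 was the single member with both KO values below both WT values, and the KO values were close together. The estimate for BIRC5 was a log2 fold change of -0.42 (SE 0.22, edgeR adjusted p = 0.834, 95% interval -0.99 to 0.14), and -0.30 (SE 0.15, edgeR adjusted p = 0.273) without WT replicate 1. The catalytic subunit AURKB (gene number 9212) was at 123 and 68.2 CPM in WT against 88.5 and 87.2 CPM in KO. Both KO libraries lay between the WT libraries, so the log2 fold change of -0.13 (SE 0.34, edgeR adjusted p = 0.924, 95% interval -0.99 to 0.74) became 0.37 (SE 0.16, edgeR adjusted p = 0.194) without WT replicate 1. The subunit borealin (CDCA8) was at 53.6 and 51.9 CPM in WT against 61.1 and 61.7 CPM in KO. It was free of overlap (log2 change 0.22, SE 0.22). The 3 subunits therefore had different orders of the libraries.

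Genes of the APC/C and its substrate securin were split by WT replicate 1. CDC20, the activator subunit, was at 108 and 162 CPM in WT against 140.2 and 152 CPM in KO, with the KO values between the WT values. UBE2C was at 215 and 133 CPM in WT against 139 and 153 CPM in KO, with WT replicate 1 on the high side. PTTG1 (gene number 9232) was at 193 and 158 CPM in WT against 175 and 159 CPM in KO. PTTG1 had a log2 fold change of -0.07 (SE 0.23, edgeR adjusted p = 0.938, 95% interval -0.66 to 0.51). The near-identical retrocopy PTTG2 was listed at 0 in all libraries.

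Kinetochore genes had a median log2 fold change of 0.31, with 4 of 5 higher in KO. CENPF (gene number 1063), a large protein of the outer kinetochore, was at 268 and 365 CPM in WT against 462 and 393 CPM in KO. The genotypes did not overlap, and the KO libraries lay further apart than KO replicate 2 and WT replicate 2. The log2 fold change of CENPF was 0.43 (SE 0.26, edgeR adjusted p = 0.834, 95% interval -0.23 to 1.098). CENPE was at 53.9 and 90.3 CPM in WT against 109.9 and 90.5 CPM in KO, with WT replicate 2 and KO replicate 2 almost equal. The microtubule-binding partners NDC80 and NUF2, subunits of the same complex, were at 57.05 and 66.7 CPM and at 61.2 and 51.7 CPM in WT. In KO they were at 80.5 and 73.1 CPM and at 66.8 and 58.3 CPM, so NDC80 was free of overlap and NUF2 was not. CENPA (gene number 1058), the histone H3 variant that marks the centromere, was at 65.5 and 30.2 CPM in WT against 40.2 and 41.5 CPM in KO. CENPA had the largest gap between the WT libraries of all 35 genes, 1.12 on the log2 scale, and its log2 fold change of -0.23 (SE 0.41, edgeR adjusted p = 0.884, 95% interval -1.28 to 0.82) became 0.44 (SE 0.18, edgeR adjusted p = 0.132) without WT replicate 1.

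The spindle group held the gene with the largest estimate. HMMR (gene number 3161), a hyaluronan receptor that also binds spindle microtubules, was at 53.04 and 103 CPM in WT against 149 and 124 CPM in KO. All 4 libraries were well separated and the genotypes did not overlap. HMMR had a log2 fold change of 0.81 (SE 0.38, edgeR adjusted p = 0.834, 95% interval -0.15 to 1.77), and of 0.41 (SE 0.15) without WT replicate 1. TPX2 (gene number 22974) was at 456 and 548 CPM in WT against 579 and 535 CPM in KO, with WT replicate 2 inside the KO range (log2 change 0.15, SE 0.23, edgeR adjusted p = 0.866, 95% interval -0.43 to 0.73). The kinesin KIF11, which pushes the spindle poles apart, was at 128 and 144 CPM in WT against 163 and 148 CPM in KO. The chromokinesin KIF4A was at 82.4 and 98.9 CPM in WT against 124 and 108 CPM in KO, and both kinesins were free of overlap. KIF4B, a retrocopy of KIF4A whose reads can be confused with it, had 5.41 to 7.52 counts per library. KIF2C, a microtubule depolymerase at centromeres, was at 156 and 110.02 CPM in WT against 116 and 119.8 CPM in KO, and was the 1 spindle gene lower in KO by the estimate (log2 change -0.18, SE 0.26). NUSAP1 and DLGAP5, which stabilise spindle microtubules, had overlapping genotypes, with log2 changes of 0.10 (SE 0.22) for NUSAP1 and 0.11 (SE 0.22) for DLGAP5.

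For the 5 cytokinesis genes the KO mean lay between -0.02 and 0.22 from WT replicate 2 on the log2 scale. PRC1 (gene number 9055), which bundles midzone microtubules, was at 332 and 307 CPM in WT against 365 and 349 CPM in KO, without overlap (log2 change 0.16, SE 0.21, edgeR adjusted p = 0.853, 95% interval -0.38 to 0.70). KIF23, the motor of the centralspindlin complex, was at 96.2 and 124 CPM in WT against 147 and 131 CPM in KO (log2 change 0.34, SE 0.24). KIF20A, the kinesin that carries the passenger complex to the midzone, was at 111 and 164 CPM in WT against 167 and 161 CPM in KO. ECT2, the exchange factor that activates RhoA for furrowing, was at 159.8 and 204 CPM in WT against 231 and 200.7 CPM in KO. For both genes WT replicate 1 was low and WT replicate 2 lay inside the KO range. The ring scaffold anillin (ANLN) was at 235 and 237 CPM in WT against 248 and 221 CPM in KO. The WT values lay inside the KO range, with a log2 fold change of -0.01 (SE 0.22).

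The chromosome proteins MKI67 and TOP2A, both used as proliferation markers, pointed in opposite directions. MKI67 (gene number 4288), which coats mitotic chromosomes and is the antigen of the Ki-67 stain, was at 357 and 539 CPM in WT against 578 and 539 CPM in KO. WT replicate 2 and KO replicate 2 differed by less than 1 CPM. The MKI67 log2 fold change was 0.32 (SE 0.28, edgeR adjusted p = 0.834, 95% interval -0.40 to 1.04), and 0.05 (SE 0.14) without WT replicate 1. Topoisomerase II alpha (TOP2A, gene number 7153), which untangles sister chromatids, was at 824 and 503 CPM in WT against 532 and 472 CPM in KO. WT replicate 1 was high and WT replicate 2 lay between the KO libraries. The log2 fold change of TOP2A was -0.40 (SE 0.31, edgeR adjusted p = 0.834, 95% interval -1.20 to 0.39), and -0.0006 (SE 0.14) without WT replicate 1.

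**Figure D2:**
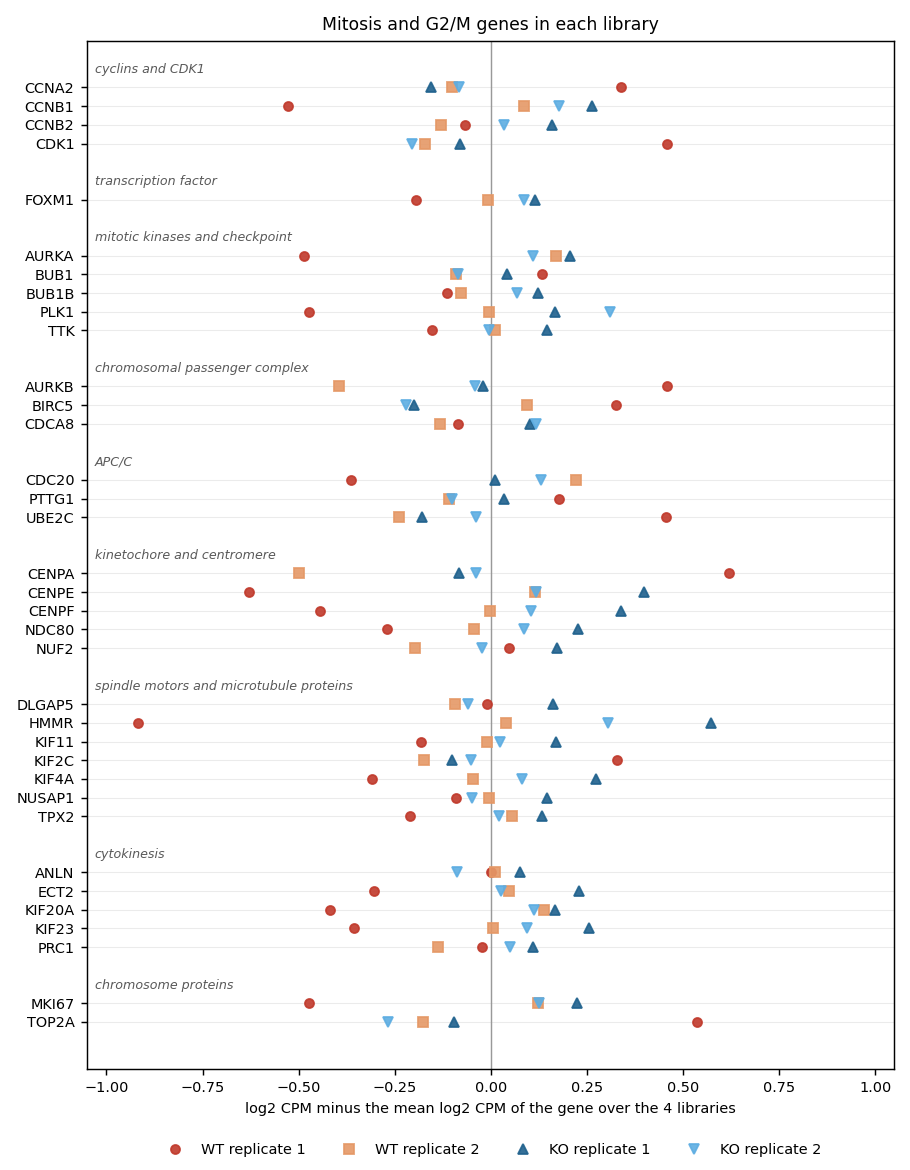
Level of each of the 35 genes in each library, as log2 CPM minus the mean log2 CPM of that gene over the 4 libraries, grouped by role. WT replicate 1 (circles) lies below both KO libraries for 22 genes and above both for 10, while WT replicate 2 (squares) lies nearer to the KO mean than WT replicate 1 does for 29 of the 35 (KO libraries are triangles).

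The estimates thus depended on which WT library KO was set against. WT replicate 1 lay below both KO libraries for 22 genes and above both for 10, namely AURKB, BIRC5, BUB1, CCNA2, CDK1, CENPA, KIF2C, PTTG1, TOP2A and UBE2C. Over all genes tested WT replicate 1 lay below both for 44.4% and above both for 45.1%. WT replicate 2 lay below both KO libraries for 23 genes, above both for BIRC5 and CDC20, and between them for 10, against 36.7%, 36.8% and 26.5% of all genes. The 2 WT libraries differed over 1.5-fold for 11 of the 35 genes (31.4%), against 48.2% of all genes. The KO libraries did so for 0 of 35, against 9.06%, and WT replicate 2 and the KO mean for 0 of 35, against 14.1%.

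With WT replicate 1 left out, 29 of 35 genes (82.9%) were higher in KO, against 51.7% of all genes. The median log2 fold change of the members was 0.11 and the estimates ran from -0.30 to 0.44. In that fit edgeR called 0 of the 35, against 6.46% of all genes, and 4 (11.4%) had an unadjusted p under 0.05, against 16.7% of all genes. With WT replicate 2 left out, edgeR called 21 of the 35 (60%), against 51.3% of all genes, so a call was common for any gene in that fit. The 13 called higher in KO, against 25.2% of all genes, were AURKA, CCNB1, CDC20, CENPE, CENPF, ECT2, HMMR, KIF20A, KIF23, KIF4A, MKI67, NDC80 and PLK1. The 8 called lower, against 26.1% of all genes, were AURKB, BIRC5, CCNA2, CDK1, CENPA, KIF2C, TOP2A and UBE2C. In both fits the spread comes only from the KO libraries, so their p-values do not cover the spread between the WT libraries. The sign of the estimate differed between these 2 fits for 10 of the 35 genes. With all 4 libraries on the FPKM scale, the estimates of ANLN, AURKB, BUB1 and CENPA were above 0 (0.031, 0.0020, 0.026 and 0.11), opposite to their sign on counts.

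The KO libraries also differed from each other in a shared direction. KO replicate 1 exceeded KO replicate 2 for 28 of the 35 genes, with a median difference of 0.12 on the log2 scale. Over all genes it was higher for 52.1%, with a median of 0.01. The mean of the KO libraries exceeded WT replicate 2 for 29 genes with a median difference of 0.11, and over all genes the median was near 0 and 49.9% were higher. With TMM and RLE factors the median difference between KO and WT replicate 2 was thus smaller than that between the KO libraries. It was 0.11 against 0.12 with TMM and 0.11 against 0.13 with RLE. This order turned with upper-quartile factors (0.14 against 0.13) and on unscaled library totals (0.17 against 0.13), where the median of all genes was itself shifted to 0.04 and 0.06.

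**Figure D3:**
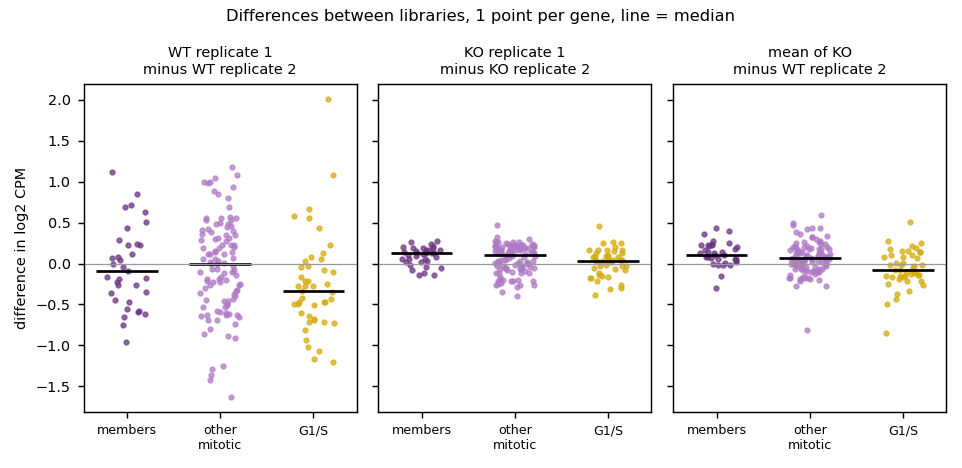
Difference in log2 CPM between libraries for the 35 members, 107 other mitotic genes and 45 G1/S and replication genes, with 1 point per gene and a line at the median. The members centre at -0.08 between the WT libraries, 0.12 between the KO libraries and 0.11 between the KO mean and WT replicate 2. They spread furthest between the WT libraries.

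Ratios between genes of the same library need no scaling between libraries, and they set WT replicate 1 apart. The pairs were chosen with the values in view and are given without a test. CCNB1 had 0.55 estimated counts per count of CDK1 in WT replicate 1, against 1.30 in WT replicate 2 and 1.38 and 1.42 in KO. MKI67 had 0.433 counts per count of TOP2A in WT replicate 1, against 1.07 in WT replicate 2 and 1.09 and 1.14 in KO. The ratio of AURKA to AURKB was 1.33 in WT replicate 1, 3.77 in WT replicate 2 and 2.98 and 2.83 in KO, and that of CDC20 to UBE2C was 0.504, 1.22, 1.01 and 0.998 in the same order. In these 4 ratios WT replicate 1 was the low library and the other 3 lay close together or with WT replicate 2 highest. The ratio of BIRC5 to CDCA8, subunits of the same complex, separated the genotypes instead, at 2.83 and 2.49 in WT and 1.73 and 1.68 in KO. On the FPKM scale it was 2.42 and 2.38 in WT and 1.62 and 1.59 in KO.

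**Figure D4:**
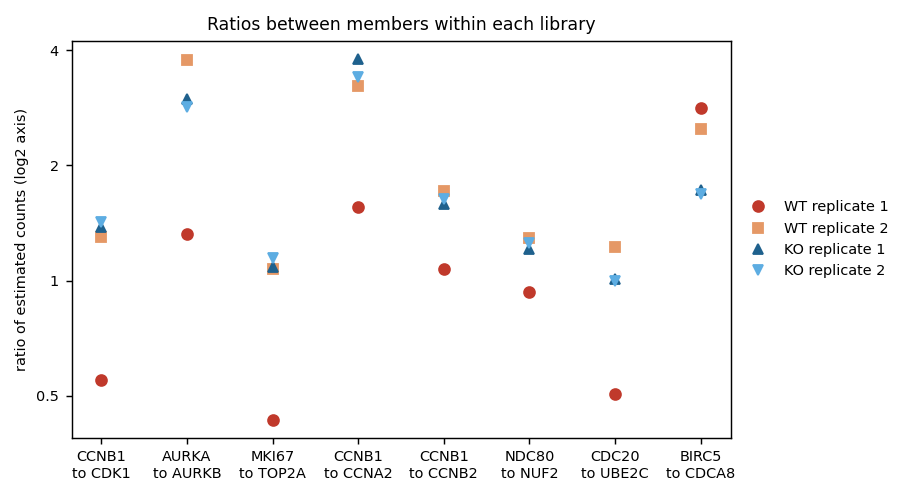
Ratio of the estimated counts of pairs of mitotic genes within each library, on a log2 axis. WT replicate 1 (circles) is the lowest library in all pairs except BIRC5 to CDCA8, where both WT libraries (2.83 and 2.49) lie above both KO libraries (1.73 and 1.68).

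A wider list of 107 other mitotic genes, from condensins to further kinesins and kinetochore subunits, also had more members higher than lower in KO. By the estimates 64 were higher and 43 lower in KO, with a median log2 fold change of 0.10. EdgeR and DESeq2 each called 0 of them. Before adjustment 2 (1.87%) were under 0.05 in each, against 4.17% of all genes in edgeR and 5.90% in DESeq2. Genes free of overlap between the genotypes and higher in KO made up 24 of the 107 (22.4%). That share was 18.3% for all genes tested and 42.9% for the 35 members. Free of overlap and lower in KO were 11 of the 107 (10.3%), against 19.1% of all genes and 2.86% of the members. Whether the wider list differs from the 35 genes was not tested. DEPDC1 was at 66.9 and 71.5 CPM in WT against 116 and 101 CPM in KO. The WT libraries were close together and below both KO libraries. The DEPDC1 estimate was 0.65 (SE 0.22, edgeR adjusted p = 0.834), and DEPDC1 was called higher without WT replicate 1 by 0.60 (SE 0.16, edgeR adjusted p = 0.00483). ZW10, a kinetochore protein of the checkpoint, was at 14.2 and 20.5 CPM in WT against 30.8 and 27.4 CPM in KO (log2 change 0.75, SE 0.29, edgeR adjusted p = 0.834). Lower in KO by the estimate were IQGAP3, at 199 and 87.6 CPM in WT against 77.03 and 80.9 CPM in KO, and CDCA2, which recruits a phosphatase to chromatin, at 95.5 and 72.01 CPM in WT against 61.7 and 57.2 CPM in KO. Both were highest in WT replicate 1, and their log2 changes were -0.86 (SE 0.42) and -0.49 (SE 0.25, edgeR adjusted p = 0.834 for each). Without that library 1 of the 107, DEPDC1, was called higher and 1, the kinetochore gene NSL1, lower, against 2.54% and 3.93% of all genes.

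Genes of the G1/S transition and DNA replication did not share the excess over WT replicate 2. With all 4 libraries 29 of 45 were higher in KO (median log2 fold change 0.08), but the KO mean exceeded WT replicate 2 for 17 of 45 and WT replicate 1 for 31 of 45. EdgeR and DESeq2 each called 0 of the 45. Before adjustment 1 (2.22%) and 3 (6.67%) were under 0.05, against 4.17% and 5.90% of all genes. The thymidine kinase gene TK1 was at 208 and 131 CPM in WT against 87.1 and 107.8 CPM in KO (log2 change -0.80, SE 0.31, edgeR adjusted p = 0.834). The replication licensing factor CDT1 had its highest level, 251 CPM, in WT replicate 1 and was at 62.4, 57.7 and 75.4 CPM in the other 3 libraries. TIPIN, a fork protection protein, was at 10.2 and 23.3 CPM in WT against 36.1 and 30.3 CPM in KO. TK1 and TIPIN were free of overlap between the genotypes and CDT1 was not. The log2 change was 0.99 (SE 0.44) for TIPIN and -1.23 (SE 0.66) for CDT1 (edgeR adjusted p = 0.834 for each). Whether these genes differ from the mitotic genes in their response was not tested.

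Among 41 regulators and inhibitors of the cycle, 40 were tested, and 15 were higher and 25 lower in KO by the estimates (median log2 fold change -0.11). EdgeR and DESeq2 each called 0. Before adjustment 1 (2.5%) and 3 (7.5%) were under 0.05, against 4.17% and 5.90% of all genes. The CDK inhibitor CDKN1A was at 414 and 379 CPM in WT against 252 and 285 CPM in KO, with no overlap. The estimate was a log2 fold change of -0.57 (SE 0.22, edgeR adjusted p = 0.834), and CDKN1A was called lower without WT replicate 1 by the value -0.50 (SE 0.14, edgeR adjusted p = 0.00773). The related inhibitor CDKN1C was at 188 and 87.7 CPM in WT against 64.9 and 75.005 CPM in KO. LIN9, a subunit of the MuvB core that works with FOXM1, was at 15.7 and 30.5 CPM in WT against 38.4 and 33.2 CPM in KO, and the pocket protein RBL1 at 30.8 and 46.4 CPM in WT against 53.3 and 48.6 CPM in KO. Both had their lowest value in WT replicate 1. The log2 change was -0.98 (SE 0.41) for CDKN1C, 0.63 (SE 0.38) for LIN9 and 0.40 (SE 0.29) for RBL1 (edgeR adjusted p = 0.834 for each). Without that library 0 of the 40 were called higher, against 2.54% of all genes, and 3 lower (CDKN1A, CCND1 and E2F5), against 3.93%, and for CCND1 and E2F5 WT replicate 1 lay within or below the range of the other libraries.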

How the data were processed

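The authors' deposited table gives an estimated count per gene and library and a length-scaled value that is not named. The deposited length-scaled value was read as FPKM because its totals, 441772 to 452971, differ between libraries. HISAT2, Cufflinks and RSEM are named, without versions or roles, per the submitters' processing notes, as is the build GRCm38.p5, although the identifiers are human. The annotation, filters and strandedness are not stated in the sources at hand. Without strand, reads of overlapping antisense genes cannot be told apart.

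Estimated counts were rounded, filtered with filterByExpr, scaled by TMM (factors 0.966 to 1.03) and tested over 16030 genes in edgeR 4.0.16 (quasi-likelihood, robust; R 4.3.3), with no covariate besides genotype and with Benjamini-Hochberg adjustment. The SE is the absolute log2 fold change over the square root of F, and 95% intervals use its moderated degrees of freedom. CPM values use TMM-scaled totals. DESeq2 1.42.0, limma 3.58.1 and the scalings, filters and left-out libraries of the closing section were alternatives. Leaving out a library leaves 1 sample in its genotype, whose variance is taken from the other genotype. The fits were also run on simulated counts. There all libraries shared the same mean profile, apart from set changes in KO, with a fixed dispersion. That simulation held no library that stands apart, so it does not show what the fits can detect in these data. Python 3.11.15 was used for summaries.

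Members and companion lists were chosen with earlier results of these data known. All members are reported. Estimates with adjusted p, and for members the interval, follow a rule: the member of highest mean FPKM in each role, the 3 smallest p in each direction, the 5 smallest p without WT replicate 1, MKI67 and STK26, and from each companion list the 2 smallest p in each direction. NSL1, CCND1, E2F5 and the gene pairs were chosen after their values were seen. Not reported here are the driver of the Cre transgene and 1 companion gene that met the rule.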

Additional observations from a re-analysis of the deposited data

How the results depend on the processing

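No alternative but the fit without WT replicate 2 called any of the 35 genes, and the number higher in KO and the median log2 fold change kept their direction throughout. Leaving out each library in turn gave 0 to 21 members called, 24 to 29 members higher in KO, medians of 0.11 to 0.24, and 0 to 8702 of all genes called. Over all genes DESeq2 called 40. With the replicate number as a block edgeR called 10 genes and 0 members. The deviations of same-numbered libraries had a weak negative correlation (r = -0.198 across genes), so the numbers are not shown to pair the libraries. The crossed replicate block, chosen after seeing the data, called 4 genes and 0 members.

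The sign of some estimates that never passed with all 4 libraries turned. Leaving out each library in turn, log2 fold changes ran from -0.0095 to 0.67 for AURKA, from -0.47 to 0.37 for AURKB, from -0.57 to 0.032 for CDK1, from -1.89 to 0.096 for CDT1, from -0.66 to 0.44 for CENPA and from -0.19 to 0.078 for PTTG1, with the lower end of AURKA and the upper end of the others without WT replicate 1 and the opposite end without WT replicate 2. PTTG1 was also above 0 without KO replicate 2 (0.0069). On log2(FPKM + 1) and log2(FPKM + 0.1) the value was 0.0020 and 0.0028 for AURKB and 0.11 and 0.12 for CENPA. The cause was not tested.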

Other observations

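The deposited counts and FPKM values imply a gene length for each library, and for 31 of the 35 genes the highest and lowest implied lengths were within 1.1-fold of each other. The exceptions were CENPA (1.28-fold), AURKA (1.16-fold), CDCA8 (1.15-fold) and PLK1 (1.14-fold), in each of which WT replicate 1 was the library apart. The implied length of CENPA was 2139 bases in WT replicate 1 and 1677 to 1700.0 bases in the other libraries. That of AURKA was 2584 bases in WT replicate 1 and 2219 to 2291 bases elsewhere. For AURKB, ANLN, CENPA and BUB1 the log2 fold change had opposite signs on the count and FPKM scales.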
